A study of Homo sapiens with 36 samples.

Results

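The 35 genes described here encode the enzymes that make cholesterol and fatty acids and the proteins that set their output. They were chosen by gene symbol from the 60628 genes of the deposited table: 7 enzymes of the mevalonate pathway, 12 enzymes from squalene to cholesterol, 5 regulators of the sterol response, the sterol carrier STARD4, 7 enzymes of fatty acid synthesis and desaturation, and 3 targets of the liver X receptors (LXR). All 35 passed the filter on low counts and were tested. Polyadenylated RNA was sequenced from 7 human T cell neoplasm lines in 36 libraries. In 18 the cells carried a hairpin RNA that targets the transcription factor GATA3, and in 18 a scrambled hairpin as control. By the labels 3 lines are of cutaneous T lymphocytes (CTCL class, for cutaneous T cell lymphoma): H9 (2 control and 3 knockdown libraries), MyLa (3 and 3, MylaCD4+ in the labels) and Mac1 (2 and 2). The other 4 are T-cell acute lymphoblastic leukaemia (T-ALL) lines: THP6 (3 control and 2 knockdown), MOLT4 (2 and 2), CCRF-CEM (3 and 3) and SUP-T1 (3 and 3). Each line is a single established culture, every control carries the scrambled hairpin, and all cells grew in serum-containing medium. Nothing in the labels says whether replicates are separate cultures. The p-values thus reflect scatter among libraries that may be technical replicates.

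Cholesterol is built from acetyl-CoA through mevalonate and farnesyl diphosphate to squalene, lanosterol and a chain of sterol intermediates. When membrane cholesterol falls, SCAP escorts the precursor proteins of SREBF1 and SREBF2 to the Golgi, where they are cut to release transcription factors that bind sterol regulatory elements, SREBF2 acting mainly on the cholesterol genes and SREBF1 mainly on the fatty acid genes. The INSIG proteins hold SCAP back when sterol is plentiful, and INSIG1 is itself a target of the factors. Oxysterols act in the other direction through LXR, which raises the cholesterol exporters ABCA1 and ABCG1 and the ubiquitin ligase MYLIP, which degrades lipoprotein receptors. Dividing T cells draw on both synthetic pathways for new membrane. RNA levels do not show how much SREBF protein was cut or how much lipid was made.

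GATA3, required for T lineage commitment, was lower on knockdown with no overlap between arms in 6 of the 7 lines, with log2 fold changes from -1.45 in MOLT4 to -0.72 in MyLa (edgeR quasi-likelihood test, the largest adjusted p = 1.31e-06). In SUP-T1 it went against the labels: it read 24.4, 23.6 and 24.2 CPM (counts relative to the scaled library total) under the control label and 81.3, 77.2 and 86.6 CPM under the knockdown label (log2 fold change 1.76, SE 0.0856, adjusted p = 6.24e-15). Libraries of SUP-T1 are named by what their labels say, and tests over lines were repeated without this line. Library totals ranged over 18.6 M to 50.6 M counts. The 2 knockdown libraries of THP6 were the least alike of any group, with a Pearson correlation across 11618 genes of 0.969, against 0.992 or more in the other 13 groups. Of 10 T cell markers, 9 or 10 reached 1 CPM in the controls of H9 and the T-ALL lines, 6 in MyLa and 4 in Mac1. CD3D, CD3E, CD3G, CD7 and LCK were at 0 in the Mac1 controls and CD3E and LCK at 0.162 and 0.0131 CPM in MyLa. The summed level of the 10 was lower in controls than on knockdown, with no overlap, in MOLT4 (2308 to 2362 against 3322 to 3452 CPM), Mac1 (391 to 403 against 457 to 465 CPM), H9 (1512 to 1548 against 1577 to 1691 CPM) and MyLa (671 to 699 against 702 to 737 CPM), higher under the control label in SUP-T1 (3229.6 to 3412 against 2545 to 2736 CPM), and overlapped in CCRF-CEM and THP6. Sums of 5 myeloid markers were also higher on knockdown in Mac1 (39.6 to 44.6 against 62.6 to 66.2 CPM, CD14 and LYZ under 0.1 CPM), and sums of 5 fibroblast markers in MOLT4 (14.5 to 14.98 against 56.8 to 57.1 CPM, COL1A2, COL3A1 and DCN under 0.1 CPM). Sums were apart in other lines too, among them myeloid in MyLa (44.2 to 45.1 against 51.9 to 59.8 CPM) and B cell in H9 (189 to 213 against 242 to 249 CPM), both higher on knockdown. Lower on knockdown were B cell in CCRF-CEM (27.2 to 28.8 against 17.4 to 19.0 CPM) and epithelial in MyLa (97.6 to 100.4 against 85.3 to 88.3 CPM). Control means included COL3A1 at 198 CPM in MyLa and CD79A at 186 CPM in H9. The part of these shifts in the member results was not tested.

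In control cells 30 of the 35 genes reached 5 CPM in every line. On the scale that allows genes to be compared, reads per kilobase of exon scaled to library size (RPKM), SCD, the desaturase that makes oleic acid, had the highest median over lines (209 RPKM), followed by INSIG1 (136), the citrate-cleaving enzyme ACLY (112), squalene synthase FDFT1 (94.1) and fatty acid synthase FASN (81.5). The lowest were ABCA1 (0.0226 RPKM), ABCG1 (2.67) and the sterol desaturase SC5D (2.88). In bulk libraries such as these, fewer cells with a transcript and less RNA per cell cannot be told apart. The fold between the highest and the lowest line was under 4 for 18 of the 35 genes, and the regulator SCAP varied least (98.7 CPM in MyLa to 162 in CCRF-CEM).

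Control levels differed between lines. CCRF-CEM held the highest control mean of 13 genes and SUP-T1 of 9, while MyLa held the lowest of 15 and H9 of 8. A line was called different where its control mean differed from the mean of the other 6 by at least 2-fold with an adjusted p of at most 0.05 (edgeR). Among the 30 genes at 5 CPM or more in every line, CCRF-CEM was called higher for 8 and lower for 0, SUP-T1 higher for 6 and lower for 1, and MyLa higher for 1 and lower for 8. Over all genes tested, with no cut at 5 CPM, the same rule called 15.4% higher and 8.65% lower in CCRF-CEM. In SUP-T1 it called 16.5% and 10.7% and in MyLa 21.5% and 10.3%. These shares and those below are thus not matched to the 30 genes. Over all 35 members the rule called 10 higher and 1 lower in CCRF-CEM, 8 and 3 in SUP-T1 and 3 and 10 in MyLa. For H9 the counts over the 35 were 3 and 5, for THP6 2 and 4, for Mac1 5 and 1 and for MOLT4 6 and 1. H9 was called lower for 5 of the 30 and higher for 0 (all genes 21.6% higher, 8.48% lower), and THP6 lower for 3 and higher for 0 (15.3% and 9.01%). Mac1 was higher for 3 and lower for 0 (19.0% and 13.8%), and MOLT4 higher for 2 and lower for 1 (21.3% and 6.31%). The 8 genes low in MyLa were HMGCS1, FDFT1, HSD17B7, MSMO1, DHCR7, INSIG1, SCD and FADS1, and TM7SF2 was its high one. FASN and ACACA were high in Mac1 together with PMVK, and both were low in THP6. These calls compare single cultures and do not describe a disease.

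HMGCS1 had the widest range of the mevalonate enzymes, 11.9-fold between lines against 2.35-fold (MVK) to 3.82-fold (IDI1) for the other 6. HMGCS1, which makes HMG-CoA from acetyl-CoA and acetoacetyl-CoA (ENSG00000112972, chromosome 5, 43289395 to 43313512, minus strand, GRCh38), ran from 41.2 ± 1.97 CPM in MyLa (SD, n = 3) through 118 ± 1.67 in H9 (n = 2) and 128 ± 32.8 in THP6 (n = 3) to 416 ± 47.9 in CCRF-CEM (n = 3) and 491 ± 9.77 in SUP-T1 (n = 3). H9 and THP6, neighbours in that order, overlapped. Mac1 and MOLT4 lay between THP6 and CCRF-CEM at 169 and 243 CPM. Over the 7 line means of log2 CPM, 8 of the 12 late cholesterol enzymes followed HMGCS1 with a Pearson correlation of at least 0.7, led by MSMO1 (0.947), DHCR7 (0.933) and SQLE (0.919), and so did 2 of the 6 other mevalonate enzymes and 1 of 7 fatty acid genes. SREBF2 correlated with HMGCS1 at 0.899 and FASN at -0.27. These correlations describe 7 lines that share processing and scaling and carry no test.

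FASN and ACACA shared their highest and lowest lines. FASN was highest in Mac1 at 2505 CPM and lowest in THP6 at 351, and the carboxylase ACACA, which makes its malonyl-CoA substrate, was also highest in Mac1 (225 CPM) and lowest in THP6 (51.2). SCD and the polyunsaturated fatty acid desaturases FADS1 and FADS2 were highest in CCRF-CEM, at 2049, 429 and 645 CPM. MyLa held 344 CPM of SCD against 1250.2 CPM as the mean of the other 6 lines.

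**Figure D1:**
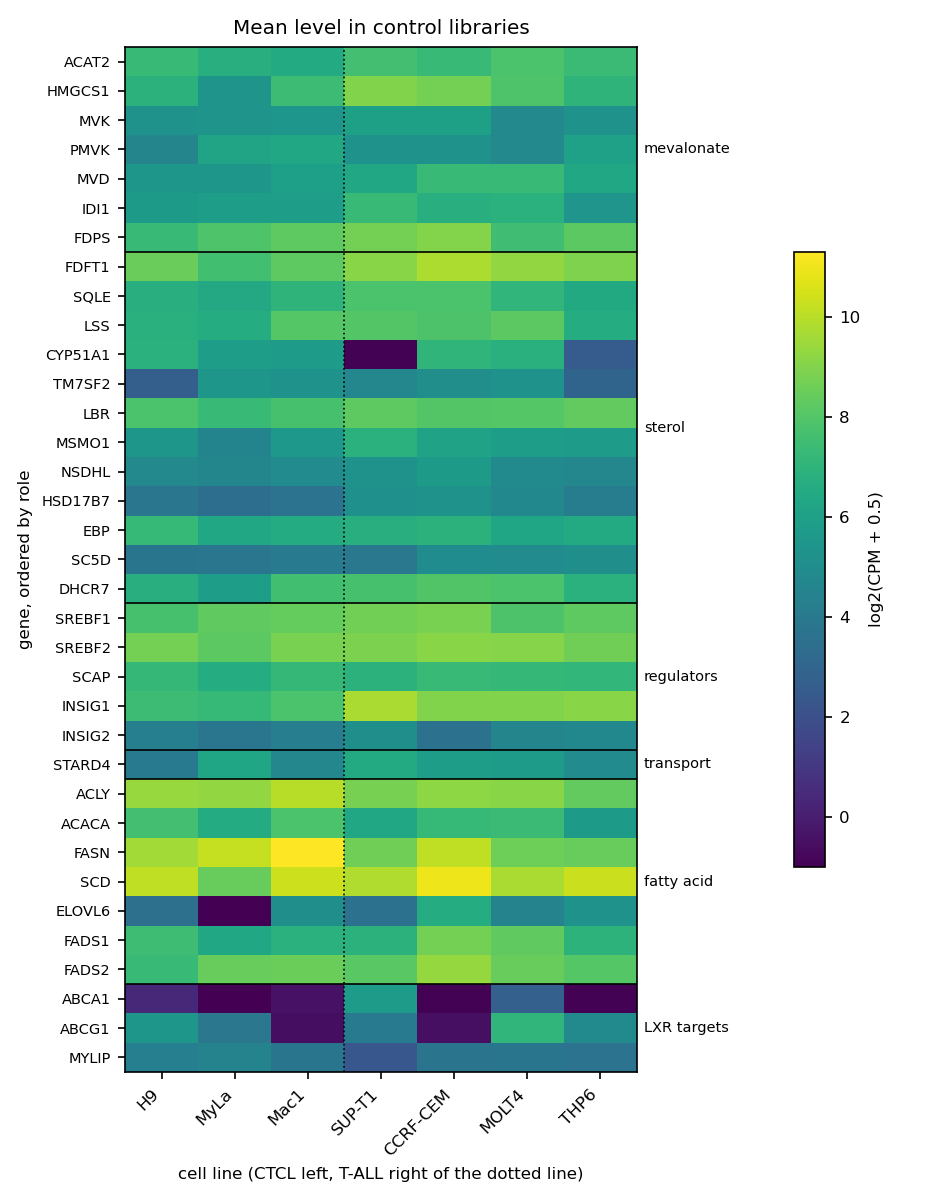
Mean control level of each of the 35 genes (rows, ordered by role) in each of the 7 lines (columns) as log2(CPM + 0.5) by colour. CCRF-CEM and SUP-T1 are bright over most cholesterol genes, and dark cells mark CYP51A1 in SUP-T1, ELOVL6 in MyLa and ABCA1 or ABCG1 in several lines.

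Single members were near 0 in single lines. CYP51A1, the lanosterol demethylase (ENSG00000001630, chromosome 7, 92112151 to 92134803, minus strand), had 1, 0 and 1 counts in the 3 SUP-T1 libraries labelled control and 2, 2 and 1 in those labelled knockdown. Its controls held 5.24, 6.07 and 5.31 CPM in THP6 and 54.8 to 130.4 CPM as line means elsewhere. Against THP6, the next lowest line, SUP-T1 controls had 2 counts in 95.1 M against 447 in 80.4 M, a ratio of 264 (95% exact interval 72.7 to 2187, counting error only). The adjacent gene AKAP9 held 35.8 CPM in the SUP-T1 controls. The processed copies CYP51A1P1 and CYP51A1P2, which share sequence with CYP51A1, had 0 and 3 counts there against 4.802 and 7.07 CPM in CCRF-CEM. The other 11 late cholesterol enzymes were all present in SUP-T1, from 14.8 CPM of SC5D to 556 of FDFT1.

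ELOVL6, the elongase of palmitate (ENSG00000170522, chromosome 4, 110045846 to 110199199, minus strand), had 0 counts in all 3 MyLa controls and 1, 1 and 0 in the MyLa knockdown libraries. Its lowest mean elsewhere was 11.2 CPM in H9, so MyLa was at least 299-fold lower (floor of 3 counts over the group). The exporter gene ABCA1 had 0 counts in all 6 MyLa libraries and at most 2 in any library of CCRF-CEM or THP6, against 58.1, 61.6 and 47.3 CPM in the SUP-T1 controls. Its partner ABCG1, which passes cholesterol to lipoprotein particles, held 0.188 and 0.202 CPM in Mac1 and CCRF-CEM and 135 CPM in MOLT4. MYLIP reached 22.3 CPM in MyLa and 4.56 in SUP-T1. SUP-T1 thus combined the highest ABCA1 level with the lowest MYLIP level, and the 3 LXR targets did not share an order over the lines.

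**Figure D2:**
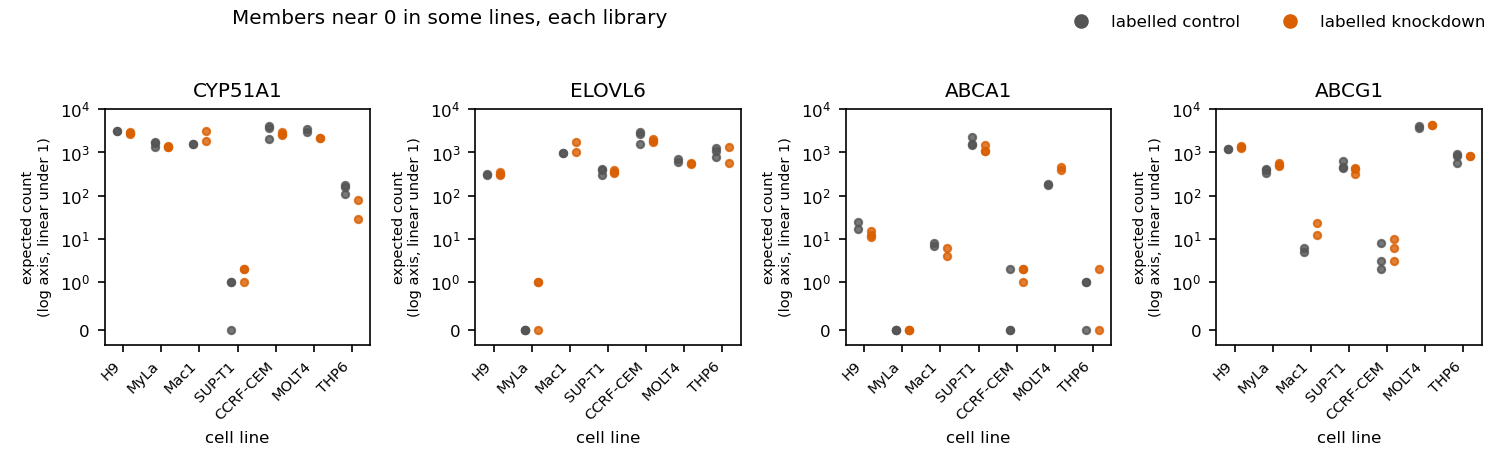
Expected counts of CYP51A1, ELOVL6, ABCA1 and ABCG1 in each library (points) by line, on an axis that is logarithmic above 1 and linear below, with libraries labelled control in grey and knockdown in orange. All 6 SUP-T1 libraries have 0 to 2 counts of CYP51A1 and all 6 MyLa libraries 0 or 1 of ELOVL6, while no library of another line has fewer than 29 counts of CYP51A1 or 294 of ELOVL6.

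Short promoter stretches of the 6 genes called in 3 or more lines by the test described further on are printed because these genes moved together in some lines and apart in others. RefSeq windows (GRCh38.p14) of 250 bases before to 50 after the start were at hand for 30 of the 35 genes. The words searched on both strands were the sterol regulatory element TCACNCCAC, the CCAAT box (CCAAT), and a GATA word (GATA with A or T before it and A or G after it). The exact sterol element was in 1 of the 30, SREBF2, and in 1.39% of all 27305 genes with a window. CCAAT was in 21 of the 30 (70.0%) and in 39.7% of all genes, and a GATA word in 6 of the 30 and in 29.1% of all genes. Below are bases 235 to 71 before the start, 5′ to 3′, with matches in capitals. HMGCS1, STARD4, SCD and SREBF2 show CCAAT or its reverse complement ATTGG, CYP51A1 and SREBF1 the reverse complement of a GATA word, and SREBF2 also the sterol element. ACLY has no match in this stretch and 2 CCAAT boxes nearer the start.
HMGCS1, chr5:43313483-43313647, minus strand: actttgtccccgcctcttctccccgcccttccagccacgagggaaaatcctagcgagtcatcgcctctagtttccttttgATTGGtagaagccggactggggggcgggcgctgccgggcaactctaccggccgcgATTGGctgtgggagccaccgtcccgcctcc
CYP51A1, chr7:92134548-92134712, minus strand: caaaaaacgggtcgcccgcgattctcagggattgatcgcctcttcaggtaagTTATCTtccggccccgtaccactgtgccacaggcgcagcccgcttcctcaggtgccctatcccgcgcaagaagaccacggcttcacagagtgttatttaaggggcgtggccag
SREBF1, chr17:17837057-17837221, minus strand: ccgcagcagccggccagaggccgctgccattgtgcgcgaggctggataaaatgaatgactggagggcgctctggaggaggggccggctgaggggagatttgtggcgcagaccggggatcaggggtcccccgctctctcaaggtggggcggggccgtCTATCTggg
STARD4, chr5:111512606-111512770, minus strand: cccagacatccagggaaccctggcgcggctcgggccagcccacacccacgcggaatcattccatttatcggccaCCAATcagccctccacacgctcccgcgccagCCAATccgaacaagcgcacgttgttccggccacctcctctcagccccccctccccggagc
ACLY, chr17:41919093-41919257, minus strand: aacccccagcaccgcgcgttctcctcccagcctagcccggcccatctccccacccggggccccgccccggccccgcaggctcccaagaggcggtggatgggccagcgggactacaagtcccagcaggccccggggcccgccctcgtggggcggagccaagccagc
SCD, chr10:100346998-100347162, plus strand: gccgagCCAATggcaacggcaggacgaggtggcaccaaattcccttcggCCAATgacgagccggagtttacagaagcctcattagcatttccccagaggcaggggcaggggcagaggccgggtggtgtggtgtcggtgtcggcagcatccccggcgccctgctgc
SREBF2, chr22:41832870-41833034, plus strand: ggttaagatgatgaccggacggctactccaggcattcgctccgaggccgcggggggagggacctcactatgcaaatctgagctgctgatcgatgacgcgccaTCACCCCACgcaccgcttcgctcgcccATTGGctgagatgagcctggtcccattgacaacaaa
A match describes these letters only. Binding was not measured, and a missing match says nothing of a factor elsewhere.

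Knockdown moved the genes differently in each line. A gene was called at a Benjamini-Hochberg adjusted p of at most 0.05 over 21138 genes (edgeR). Mac1 had 9 members higher and 0 lower on knockdown, where 5.54% of all genes were called higher, 2.35% lower and 7.89% either way. CCRF-CEM had 1 higher and 12 lower (all genes 3.0% and 5.43%, 8.44% either way). For SUP-T1, taking the labels as given, 2 were higher and 12 lower on knockdown (all genes 8.14% and 8.57%, 16.7% either way). MOLT4 had 5 higher and 7 lower (8.88% and 10.3%, 19.2% either way). MyLa had 3 higher and 1 lower (1.02% and 0.861%, 1.88% either way), and THP6 1 and 1 (5.56% and 1.84%, 7.4% either way). H9 had 0 calls by edgeR, where 0.852% of all genes were called higher, 0.965% lower and 1.82% either way. There 4 members had an unadjusted p of at most 0.05 (share of all genes not given here), limma-voom called 0 and DESeq2 1. In every one of the 54 calls the libraries of the arms did not overlap, which a call with 2 or 3 libraries an arm nearly implies. Uncalled members were often apart too: in Mac1 25 members had all knockdown libraries above and 3 all below the controls. The share of all genes with arms apart is not given here. Most changes were small: 3 of the 54 reached 2-fold, and the median log2 fold change of the 35 members ran from -0.21 (CCRF-CEM) and -0.13 (THP6) through -0.04 (MyLa), -0.01 (MOLT4) and 0.05 (H9) to 0.25 (Mac1), with the median of all genes at 0. In SUP-T1 it was -0.24 by the labels, and its sign turns if the arms are ordered by their GATA3 level as in the other 6 lines. Of the 35, 31 were called in at least 1 line, and 11 were called higher in 1 line and lower in another by the labels. The shares of all genes with such calls are not given here, so these counts do not describe a trait of the members. With the SUP-T1 calls not counted 5 of the 11 were left (HMGCS1, FDFT1, CYP51A1, EBP and SCD), and in the fit without the SUP-T1 libraries 3 (FDFT1, CYP51A1 and SCD). The isomerase IDI1, INSIG2, FASN and ELOVL6 were called in none.

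Leaving out 1 library moved several counts: Mac1 had 2 calls without control 1, 3 without knockdown 1, and 4 without control 2 or without knockdown 2. CCRF-CEM had 6 without knockdown 2 and 8 without control 2 or without knockdown 3, MOLT4 5 without knockdown 1 and 7 without control 2, SUP-T1 9 without knockdown 3, and MyLa 2 without any library but control 2. H9 had 1 without knockdown 2 and 1 without knockdown 3. Without any 1 library the share of all genes called was also lower, at 2.56% to 4.71% in Mac1 and 5.13% to 7.32% in CCRF-CEM. Of the 54 calls, 20 held under every alternative and every left-out library: SCD and FADS2 in Mac1, ABCG1 in MyLa, FDPS, FDFT1, TM7SF2 and HSD17B7 in CCRF-CEM, MVK, PMVK, TM7SF2, DHCR7 and ABCA1 in MOLT4, and INSIG1, STARD4, SREBF1, SCAP, LSS, SCD, FADS1 and FADS2 in SUP-T1. The FADS2 call in SUP-T1 was the closest to being lost, with an adjusted p of 0.0498 in 1 of its left-out fits. With the 6 SUP-T1 libraries left out of the fit, HMGCS1 lost its calls in Mac1 and CCRF-CEM, and CYP51A1, NSDHL and EBP theirs in CCRF-CEM (adjusted p up to 0.0638), and SREBF1 was called higher in CCRF-CEM (adjusted p = 0.0380).

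**Figure D3:**
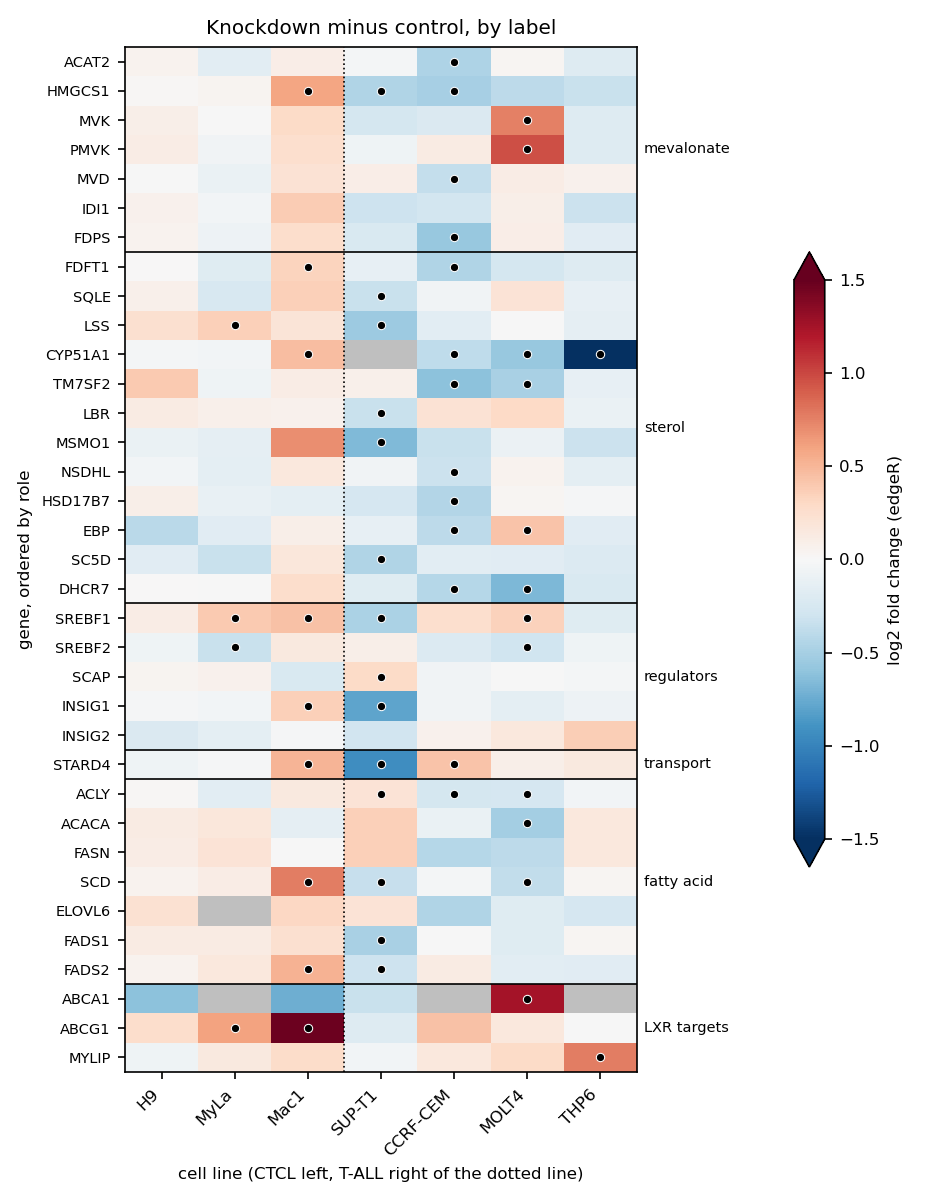
Log2 fold change of knockdown against control, by label, for the 35 genes (rows, ordered by role) in the 7 lines (columns). Dots mark an adjusted p of at most 0.05, grey marks genes with at most 3 counts in every library of that line, and colours saturate at 1.5. Mac1 carries dots on red only, and CCRF-CEM and SUP-T1 carry 12 dots each on blue.

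Mevalonate enzymes moved most often in CCRF-CEM, where 4 of 7 fell. FDPS, which makes farnesyl diphosphate, had 537, 506 and 510.1 CPM in the CCRF-CEM controls and 352, 346 and 350.2 in the knockdown libraries (log2 fold change -0.57, SE 0.0961, adjusted p = 0.000158). All 3 knockdown libraries lay well below all controls. The thiolase ACAT2 fell from 159.6 to 116 CPM (log2 fold change -0.46) and the decarboxylase MVD from 155 to 121 (-0.35). ACAT2 shares 69.7% of its exon bases with genes on the other strand, and no source used here states whether counting used strand. ACAT2 lost its call without knockdown 2 (adjusted p = 0.0546) and MVD without knockdown 2 or control 2 (up to 0.138).

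In MOLT4 the 2 kinases between mevalonate and the isoprenoids rose. PMVK, phosphomevalonate kinase, held 25.3 and 28.3 CPM in the MOLT4 controls and 55.4 and 49.01 in the knockdown libraries (log2 fold change 0.96, SE 0.127, adjusted p = 1.69e-06) and MVK, mevalonate kinase, rose from 26.8 to 45.1 CPM (log2 fold change 0.75). Neither was called in another line, and their rise exceeded the mean response of the other 6 lines by 0.93 (PMVK, adjusted p = 1.34e-05) and 0.80 (MVK, adjusted p = 0.00105) on the log2 scale.

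HMGCS1 moved in opposite directions in 3 lines. In Mac1 its controls had 161 and 176 CPM and the knockdown libraries 263 and 245 (log2 fold change 0.59, SE 0.179, adjusted p = 0.0402). CCRF-CEM controls had 454, 362 and 433 CPM and knockdown libraries 304, 291 and 286 (log2 fold change -0.50, SE 0.146, adjusted p = 0.0262). In SUP-T1 the libraries labelled control had 498, 495 and 479.7 CPM and those labelled knockdown 343, 376 and 358 (log2 fold change -0.45, SE 0.145, adjusted p = 0.0303). All knockdown libraries of Mac1 were above, and those of the other 2 lines below, the libraries labelled control. H9 held 117 and 119 CPM in controls and 119, 119 and 118 on knockdown, and MyLa 43.1, 41.4 and 39.1 CPM in control and 43.5, 44.3 and 39.3 in knockdown libraries, so both lines overlapped. MOLT4 held 243 and 242 CPM in control and 170.1 and 200.2 in knockdown libraries, apart but not called (adjusted p = 0.136), and THP6 90.8, 153 and 139 CPM in control and 132 and 70.5 in knockdown libraries. The 7 responses differed (adjusted p = 0.00461). The calls were fragile: leaving out any 1 library lost the call in Mac1 (adjusted p up to 0.259) and SUP-T1 (up to 0.0995), and leaving out any library but control 2 lost it in CCRF-CEM (up to 0.117).

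Of the 12 enzymes after farnesyl diphosphate, 7 fell in CCRF-CEM, 5 were lower under the knockdown label in SUP-T1, and 3 fell and 1 rose in MOLT4. In Mac1 2 rose, and MyLa and THP6 had 1 call each. TM7SF2, a sterol reductase of the nuclear and endoplasmic membranes, had 33.1, 35.3 and 32.4 CPM in the CCRF-CEM controls and 22.7, 20.7 and 22.2 on knockdown (log2 fold change -0.62, SE 0.0859, adjusted p = 1.02e-05). It also fell in MOLT4, from 38.6 to 27.6 CPM (log2 fold change -0.48). H9, with the lowest level, had 6.08 and 6.02 CPM in controls and 8.82, 7.83 and 7.13 on knockdown, apart but not called (log2 fold change 0.39, adjusted p = 0.0760). Its H9 response exceeded the mean of the other lines by 0.57 (adjusted p = 0.009996).

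DHCR7, which completes cholesterol from its dehydro precursor, had 219.7 and 229.6 CPM in MOLT4 controls and 139 and 142 on knockdown (log2 fold change -0.68, SE 0.117, adjusted p = 8.17e-05). It fell in CCRF-CEM from 249.9 to 186 CPM (log2 fold change -0.43), a call lost without control 2 (adjusted p = 0.0594). FDFT1, the first committed enzyme of sterol synthesis, fell in CCRF-CEM from 881 to 646 CPM (log2 fold change -0.45) and rose in Mac1 from 306 to 387 (0.34). The Mac1 rise lost its call without any 1 of the 4 libraries (adjusted p up to 0.224). The other CCRF-CEM declines were in the dehydrogenase NSDHL (log2 fold change -0.32), the ketoreductase HSD17B7 (-0.44) and the isomerase EBP (-0.40). EBP rose in MOLT4 (0.43). NSDHL and EBP in CCRF-CEM each lost the call when any library but control 3 was left out (adjusted p up to 0.114 and 0.151), and EBP in MOLT4 without any 1 library (up to 0.215).

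In SUP-T1 the late enzymes lower in the libraries labelled knockdown were squalene epoxidase SQLE (log2 difference -0.33), lanosterol synthase LSS (-0.54), the lamin B receptor LBR, which is also a sterol reductase (-0.33), the methylsterol oxidase MSMO1 (-0.66) and SC5D (-0.45). LSS went from 254 to 174 CPM and kept its call under each left-out library, and MSMO1 from 115 to 72.6 CPM. LSS rose in MyLa from 97.6 to 125 CPM (log2 fold change 0.36), a call lost without any 1 of the 6 libraries (adjusted p up to 0.202) and, for LSS in MyLa, with the replicate block (adjusted p = 0.135). SQLE and LBR lost theirs without knockdown 3 and without 2 other libraries each (adjusted p up to 0.0976 and 0.103), MSMO1 without knockdown 3 (0.0832), and SC5D without any library but knockdown 2 (up to 0.151).

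CYP51A1 was called in 4 lines. THP6 controls held 5.24, 6.07 and 5.31 CPM and the knockdown libraries 2.74 and 1.01 (log2 fold change -1.56, SE 0.198, adjusted p = 2.26e-05). MOLT4 held 108 and 113 CPM in controls and 73.01 and 76.3 on knockdown (log2 fold change -0.57, SE 0.140, adjusted p = 0.00370). CCRF-CEM held 145, 112 and 134 CPM in control and 100.1, 98.01 and 103 in knockdown libraries (log2 fold change -0.38, SE 0.114, adjusted p = 0.0333). In these 3 T-ALL lines every knockdown library was below every control. Mac1 went the other way, with 53.5 and 56.1 CPM in controls and 77.98 and 72.8 on knockdown (log2 fold change 0.46, SE 0.141, adjusted p = 0.0402). H9 held 117 and 114 CPM in control and 113, 111 and 117 in knockdown libraries and MyLa 61.8, 60.1 and 53.9 CPM in control and 59.5, 58.1 and 53.6 in knockdown libraries, neither called. The responses differed over lines (adjusted p = 6.14e-06). Calls were lost without any 1 library in Mac1 (adjusted p up to 0.222), without any but control 2 in CCRF-CEM (up to 0.178) and without knockdown 1 in MOLT4 (0.0521). The THP6 fold change was -1.02 with knockdown 1 alone and -2.45 with knockdown 2 alone, and a fit on the THP6 libraries alone called no member and not GATA3 either (adjusted p = 0.753 for CYP51A1 and for GATA3). Of the exon bases of CYP51A1, 86.0% overlap other annotated genes, and its copies took 8.04% of the counts of gene and copies together.

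Among the regulators SREBF1 was called in 4 lines. It rose in MyLa, from 315, 314 and 315 CPM in controls to 398, 404 and 441 (log2 fold change 0.40, SE 0.0840, adjusted p = 0.00714). Mac1 held 324 and 339 CPM in control and 413 and 484 in knockdown libraries (log2 fold change 0.44, SE 0.103, adjusted p = 0.00678), and MOLT4 231 and 233 CPM in control and 292 and 296 in knockdown libraries (log2 fold change 0.35, SE 0.103, adjusted p = 0.0166). The arms were apart in all 3 lines. SUP-T1 held 396, 418 and 398 CPM under the control label and 264, 271 and 335 under the knockdown label (log2 fold change -0.48, SE 0.0840, adjusted p = 0.000110). H9 held 219 and 205 CPM in control and 236, 216 and 232 in knockdown libraries, and CCRF-CEM 398, 484 and 449 CPM in control and 511, 525 and 549 in knockdown libraries, apart but not called (adjusted p = 0.0620; 0.0380 and called without the SUP-T1 libraries). THP6 held 298, 300.0 and 298 CPM in controls and 295 and 233 on knockdown, also apart but not called. SREBF1 is the member called higher in the most lines, and the lines differed (adjusted p = 4.02e-06). Calls were lost without any 1 library in MOLT4 (adjusted p up to 0.0952), without control 1 or knockdown 2 in Mac1 (up to 0.110) and without knockdown 3 in MyLa (0.0765). The counts do not separate the SREBF1 isoforms.

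SREBF2 fell in the same MyLa and MOLT4 libraries in which SREBF1 rose, from 289 to 229 CPM in MyLa (log2 fold change -0.34, adjusted p = 0.0143) and from 526 to 427 in MOLT4 (-0.30, adjusted p = 0.0214). Both calls were lost in several left-out fits (4 of 6 in MyLa and 3 of 4 in MOLT4, adjusted p up to 0.0941 and 0.209). INSIG1 in SUP-T1 had the lowest adjusted p of all 54 calls, with 894, 863 and 808 CPM under the control label and 480.0, 539.5 and 466 under the knockdown label (log2 fold change -0.79, SE 0.08003, adjusted p = 1.88e-08). It rose in Mac1 from 226 to 289 CPM (log2 fold change 0.36), which was lost without control 1 or knockdown 1 (adjusted p up to 0.229). SCAP was higher under the knockdown label in SUP-T1 (117 to 142 CPM, log2 difference 0.28), opposite to INSIG1 in the same libraries.

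STARD4, a soluble carrier that moves sterol between membranes, had its largest difference in SUP-T1, with 92.1, 93.96 and 90.7 CPM in the libraries labelled control and 50.1, 51.5 and 43.9 in those labelled knockdown (log2 fold change -0.93, SE 0.111, adjusted p = 3.30e-07). Mac1 held 25.7 and 24.3 CPM in controls and 38.9 and 32.03 on knockdown (log2 fold change 0.51, SE 0.139, adjusted p = 0.0201), and CCRF-CEM 67.6, 44.96 and 62.8 CPM in control and 76.1, 79.9 and 80.6 in knockdown libraries (log2 fold change 0.43, SE 0.111, adjusted p = 0.0114). In CCRF-CEM it rose while 12 other members fell, and its response was 0.47 above the mean of the other lines (adjusted p = 0.0164). Without the SUP-T1 libraries this difference from the other lines was not called. H9 held 16.5 and 16.6 CPM in control and 15.5, 15.6 and 16.5 in knockdown libraries and MyLa 74.4, 79.5 and 66.05 CPM in control and 76.4, 73.8 and 67.9 in knockdown libraries. MOLT4 held 53.98 and 51.6 CPM in control and 52.4 and 59.8 in knockdown libraries and THP6 29.1, 31.4 and 28.7 CPM in control and 38.1 and 27.8 in knockdown libraries, none of the 4 called. The lines differed (adjusted p = 1.29e-06), but without SUP-T1 the difference over the other 6 lines was not called. CCRF-CEM control 2, the library with 44.96 CPM, decided the CCRF-CEM call (adjusted p = 0.0780 without it), and the Mac1 call was lost without control 1, control 2 or knockdown 1 (up to 0.254).

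SCD had the lowest adjusted p of any member in Mac1. The Mac1 controls held 1235 and 1415 CPM and the knockdown libraries 2160.0 and 2347 (log2 fold change 0.77, SE 0.0817, adjusted p = 2.00e-07). MOLT4 held 829.6 and 870.2 CPM in controls and 626 and 692 on knockdown (log2 fold change -0.37, SE 0.0815, adjusted p = 0.00147), and SUP-T1 909, 937 and 865 in libraries labelled control and 671, 707 and 758 in those labelled knockdown (log2 fold change -0.34, SE 0.0665, adjusted p = 0.000368). The arms did not overlap in these 3 lines, which moved in both directions. H9 held 1149 and 1088 CPM in control and 1201, 1061 and 1222 in knockdown libraries, and MyLa 350.4, 346 and 334 CPM in control and 368, 362 and 382 in knockdown libraries. CCRF-CEM held 2026, 1981 and 2140.4 CPM in control and 1979, 1979 and 2087 in knockdown libraries, and THP6 1179, 1318 and 1269 CPM in control and 1317 and 1247 in knockdown libraries. None of these 4 was called, though the arms were also apart in MyLa. The SCD response differed over lines with the lowest adjusted p of the 35 genes (7.02e-08). The MOLT4 call was lost without knockdown 1 (adjusted p = 0.0525).

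FADS2 rose with SCD in Mac1, from 352 and 381 CPM to 502 and 548 (log2 fold change 0.52, SE 0.0898, adjusted p = 0.000275). In SUP-T1, FADS2 (log2 difference -0.31) and FADS1 (-0.49, from 118 to 84.2 CPM) were lower in the libraries labelled knockdown. SCD and FADS2 thus moved together in both lines, up in Mac1 and lower in SUP-T1. FADS2 shares exon bases with FEN1 and FADS1. In MOLT4 all 7 fatty acid genes had both knockdown libraries below both controls, and SCD, ACLY and ACACA were called. Such separation was common in MOLT4, with 2 libraries an arm: of the 35 members 15 lay below and 12 above. The share of all genes so separated is not given here. FASN and ACACA make palmitate. ACACA fell there from 168 to 118 CPM (log2 fold change -0.51), a call lost without control 2 or knockdown 1 (adjusted p up to 0.260), and was called in no other line. FASN held 365 and 395 CPM in the MOLT4 controls and 281 and 299 on knockdown (adjusted p = 0.246) and was called in no line.

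ACLY, which makes the cytosolic acetyl-CoA both pathways start from, had the smallest changes of the 6 genes. CCRF-CEM held 556, 612 and 584 CPM in controls and 497, 470.5 and 497 on knockdown (log2 fold change -0.26, SE 0.0696, adjusted p = 0.0160). MOLT4 held 547 and 572 CPM in control and 449 and 492 in knockdown libraries (log2 fold change -0.25, SE 0.0852, adjusted p = 0.0373). SUP-T1 libraries labelled control held 417, 472 and 438 CPM and those labelled knockdown 482, 485 and 569 (log2 fold change 0.21, SE 0.0696, adjusted p = 0.0350). The arms did not overlap in any of the 3. H9 held 669 and 657 CPM in control and 689, 623 and 695 in knockdown libraries and MyLa 625, 634 and 634 CPM in control and 522, 571 and 599.8 in knockdown libraries. Mac1 held 965 and 1067 CPM in control and 1079 and 1162 in knockdown libraries and THP6 317, 329 and 336 CPM in control and 308 and 328 in knockdown libraries. These 4 were not called, though the arms were also apart in MyLa and Mac1. The lines differed (adjusted p = 0.00224). Each of the 3 calls was lost without any of 3 libraries: controls 1 and 3 and knockdown 3 in SUP-T1 (adjusted p up to 0.292), control 2 and knockdowns 2 and 3 in CCRF-CEM (up to 0.175), and both controls and knockdown 1 in MOLT4 (up to 0.316).

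**Figure D4:**
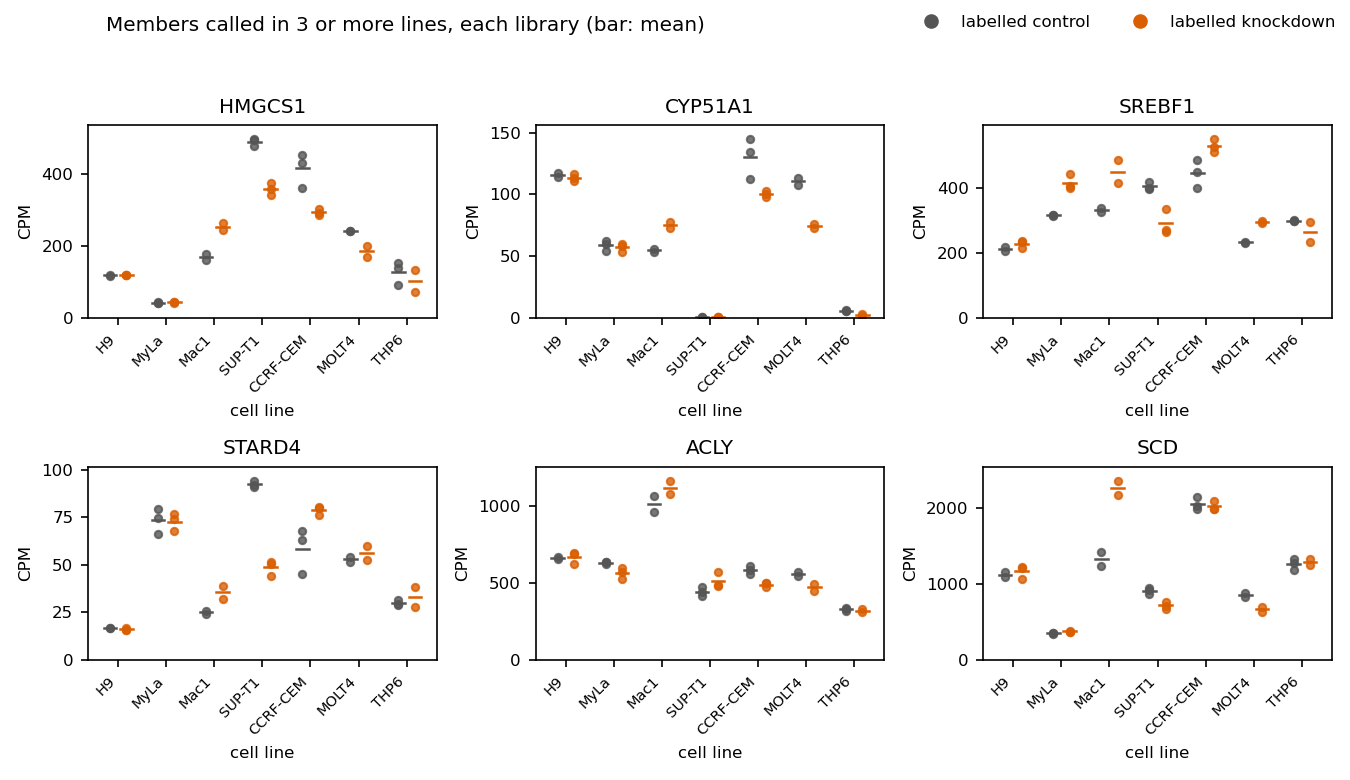
CPM of the 6 genes called in 3 or more lines, each library as a point and each group mean as a bar, with libraries labelled control in grey and knockdown in orange. In Mac1 the orange points of all 6 genes lie above the grey ones, and in SUP-T1 those of HMGCS1, SREBF1, STARD4 and SCD lie below.

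Of the LXR targets, ABCA1 rose in MOLT4 and was called nowhere else. In SUP-T1, where it is highest, it held 58.1, 61.6 and 47.3 CPM in the libraries labelled control and 39.2, 36.9 and 55.99 in those labelled knockdown (adjusted p = 0.161). Its MOLT4 controls held 6.63 and 5.82 CPM and the knockdown libraries 13.7 and 15.8 (log2 fold change 1.24, SE 0.212, adjusted p = 0.000109). ABCG1 rose in MyLa, with 15.1, 14.7 and 12.9 CPM in controls and 21.2, 21.4 and 22.4 on knockdown (log2 fold change 0.60, SE 0.119, adjusted p = 0.00361). It was also called in Mac1 at a very low level, with 6 and 5 counts in controls and 23 and 12 on knockdown (adjusted p = 0.0405). The Mac1 call was lost without any 1 library (up to 0.271). MYLIP held 13.98, 11.9 and 11.2 CPM in THP6 controls and 15.6 and 26.6 on knockdown (log2 fold change 0.77, SE 0.138, adjusted p = 0.00119). Knockdown 2 stood well above, and without it the adjusted p was 0.416. None of ABCA1, ABCG1 and MYLIP was called lower in any line. By the labels all 3 had log2 fold changes below 0 in SUP-T1, 1 of them called lower than in the other lines. ABCA1 in MyLa, CCRF-CEM and THP6, and ABCG1 in Mac1 and CCRF-CEM, were near 0, where a fall could hardly be called.

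In THP6 the result turned on which knockdown library was kept. Knockdown 1 lay below all 3 controls for 6 of the 35 genes and above them for 13, and knockdown 2 below for 23 and above for 3. These counts were made for the members only. Without the share over all genes they describe the 2 libraries and not a trait of the members. With knockdown 2 as the only knockdown library 21 members were called, 19 lower and 2 higher, where 18.8% of all genes were called lower and 17.1% higher. With knockdown 1 alone 1 member was called, CYP51A1 (lower), where 0.233% of all genes were called lower and 0.105% higher. A lone library was assumed to vary like the other groups. With knockdown 2 alone the lower members included ELOVL6 (log2 fold change -0.97), MSMO1 (-1.13), IDI1 (-1.04) and HMGCS1 (-0.86), named after their values were seen. GATA3 held 55.7 and 73.5 CPM in knockdown 1 and 2, so the library with the wider change had the higher GATA3 level. What sets these 2 libraries apart was not tested.

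The responses of 28 of the 35 members differed between the 7 lines (edgeR test that all log2 fold changes are equal), where 35.2% of all genes did. Without SUP-T1, 19 of 35 differed over the other 6 lines, against 22.1% of all genes. The 7 that did not differ over 7 lines were ACAT2, IDI1, NSDHL, SC5D, INSIG2, FASN and ELOVL6. Each line was also tested against the mean of the other 6. Mac1 then had 12 members with a higher response and 0 lower (all genes 4.1% and 1.98%), and SUP-T1 3 higher and 11 lower (7.96% and 8.87%). CCRF-CEM had 1 higher and 6 lower (1.76% and 4.14%) and MOLT4 3 and 4 (5.88% and 6.85%). THP6 had 1 and 3 (4.04% and 1.15%), MyLa 1 and 0 (0.7% and 0.762%) and H9 1 and 0 (0.473% and 0.591%). Without SUP-T1 the Mac1 count against the other 5 lines was 10, all higher, where 5.4% of all genes were called. The counts of the others were then 9 in MOLT4 (11.0% of all genes), 5 in CCRF-CEM (3.79%), 5 in THP6 (4.79%), 1 in H9 (1.02%) and 0 in MyLa (1.66%; 1 with SUP-T1 in the fit). The members that set Mac1 apart included MSMO1 (0.96 above the other 6 lines, adjusted p = 0.0162) and DHCR7 (0.51, adjusted p = 0.0112), which had no call of their own in Mac1 and were named after their values were seen.

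Over lines as replicates, no member passed. With counts summed per line and arm, edgeR called 0 of 35 for a mean response over the 7 lines and 0 for a different response in CTCL and T-ALL lines, as for all 20773 genes (0.0% in both). At an unadjusted p of at most 0.05 there were 1 and 9 members (566 and 588 of all 20773 genes), the first count near the share of all genes. DESeq2 called 0 and 0, and limma-voom 0 and 0. For the class difference HMGCS1 had the lowest unadjusted p of the members (edgeR, 0.00268; adjusted p = 1), with a response 0.65 higher on the log2 scale in CTCL. SUP-T1 entered this test by its labels, with an HMGCS1 response of -0.45. Neither the 9 members nor the HMGCS1 difference is given here without SUP-T1. In control cells 27 members were lower and 8 higher in CTCL, with a median log2 difference of -0.53 against 0.03 over all genes. Here edgeR called 0 members and 0.28% of all genes. DESeq2 called 4 members and limma-voom 0, and the shares of all genes called by these are not given here. By edgeR 11 members had an unadjusted p of at most 0.05 (2563 of all 18565 genes). INSIG1 came closest (182.8 CPM as the mean of CTCL lines and 599 of T-ALL lines, adjusted p = 0.0805). With 3 lines against 4, and SUP-T1 among them, class and line cannot be told apart for a gene that is high in 1 or 2 lines.

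A list of 51 other genes of sterol and fatty acid handling, 50 of them tested, was counted in the same way. MOLT4 had 6 higher and 11 lower (34% called, all genes 19.2%), SUP-T1 8 and 7 by label (30% called, all genes 16.7%), Mac1 5 and 3 (16% called, all genes 7.89%) and CCRF-CEM 1 and 5 (12% called, all genes 8.44%). THP6 had 1 and 2 (6% called, all genes 7.4%), H9 2 and 0 (4% called, all genes 1.82%) and MyLa 0 and 1 (2% called, all genes 1.88%), so the shares in THP6 and MyLa were near those of all genes. LPIN1, a phosphatidate phosphatase of glyceride synthesis, fell in MOLT4 (59.3 to 30.7 CPM, log2 fold change -0.95), in MyLa (-0.32) and in THP6 (-0.25), and was higher under the knockdown label in SUP-T1 (0.70). In CCRF-CEM the acyl-CoA synthetase ACSL1 (log2 fold change -0.84), the acetyl-CoA synthetase ACSS2 (-0.86) and the lipoprotein receptor SCARB1 (-0.34) fell alongside the cholesterol enzymes. ACSL1 (0.96) and SCARB1 (0.61) were higher under that label in SUP-T1. FADS3, related to the desaturases above, rose in Mac1 (0.73) and fell in MOLT4 (-1.15), where MID1IP1, an activator of ACACA, also fell (-0.82). In H9, where no member was called, the desaturase SCD5 (0.53) and the citrate carrier SLC25A1 (0.32) rose.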

How the data were processed

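Polyadenylated RNA of 36 libraries was sequenced. Reads were trimmed with cutadapt 2.3, aligned with STAR 2.7.8a to GRCh38 and counted with RSEM 1.3.3, per the submitters' processing notes, which name no annotation release or strand setting. The deposited table holds the authors' expected counts, already whole, and these were used as deposited, with group and replicate taken from the labels. The 35 members, the lists and the tests were chosen with earlier results of these data known.

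Here 1 model was fitted to all 36 libraries with edgeR 4.0.16 (quasi-likelihood F-test, TMM factors of 0.812 to 1.11, filterByExpr leaving 21138 genes, common dispersion 0.0118), with a mean for each line and arm and p-values adjusted by Benjamini-Hochberg over all genes tested at 0.05. Mean and class comparisons used counts summed per line and arm. The fit was tested on simulated counts. CPM are counts relative to the TMM-scaled library total, and RPKM divide by the exon length in GENCODE 29, which held 96.5% of the gene identifiers. Coordinates are from GENCODE 29 (GRCh38). Counting intervals (95%) and floors cover counting error only.

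Values in every library are given for members called in at least 3 lines and for the 2 members with the lowest adjusted p in each line with a call, and of the other pathway genes at most 3 per line by adjusted p are named. Other members, promoters beyond these and SREBF2 were chosen for printing after their values were seen. Replicate numbers were checked for pairing: same-numbered MyLa libraries deviated together (correlations of 0.151 to 0.157 over 11618 genes), so MyLa numbers may pair the libraries. The main model used no pairing in any line. With the replicate block MyLa had 3 calls in place of 4, and LSS was lost. Alternatives were DESeq2 1.42.0 and its size factors, limma-voom (limma 3.58.1), 2 other filters, a separate fit per line, the replicate block and each library left out in turn. Leaving out the SUP-T1 libraries was added after seeing the data. R 4.3.3 and Python 3.11.15 were used.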

Additional observations from a re-analysis of the deposited data

Results flagged for a closer look

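The response to knockdown differed between the 7 lines, by a test of the difference itself (edgeR's quasi-likelihood test, adjusted p), for each of the 6 genes called in 3 or more lines: SCD (7.02e-08), STARD4 (1.29e-06), SREBF1 (4.02e-06), CYP51A1 (6.14e-06), ACLY (0.00224) and HMGCS1 (0.00461). SUP-T1, where GATA3 is higher in the libraries labelled knockdown, is 1 of the 7, and without it the test still called SCD, SREBF1, CYP51A1, ACLY and HMGCS1 but not STARD4.

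Among the 4 T-ALL lines, 1 line stood far from the other 3 in the control level of 2 of the 35 genes. FASN was at 1118 CPM in CCRF-CEM against 398 in SUP-T1, 379.9 in MOLT4 and 351 in THP6 (gap over range 0.892). MYLIP was at 4.56 CPM in SUP-T1 against 12.8 in CCRF-CEM, 12.4 in THP6 and 13.3 in MOLT4 (gap over range 0.929). Both ratios pass Dixon's limit for 4 values, and chance passes it in about 1 in 20 groups.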

How the results depend on the processing

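No called member reversed under any alternative run. Under other settings the named genes kept their side of the threshold in 442 values and lost the call in 31, 17 of them with the replicate block. With 1 library left out they kept it in 214 values and lost it in 102. Counts of members moved by more than 1.5 times in few settings. H9 had 1 call with DESeq2 and 1 with no filter, in place of 0. MOLT4 had 20 with a separate fit in place of 12, and THP6 0 with a separate fit in place of 2. The share of all genes called in the separate fits is not given here. DESeq2 gave 4 calls for the class difference in control cells, and no filter gave 2 for the class difference in response, in place of 0. The shares of all genes under DESeq2 and under no filter are not given here either. Same-numbered libraries correlated from -0.161 to 0.228 outside MyLa, and the highest, H9 replicate 2, was above the MyLa values. Differently numbered libraries were not compared, so pairing is not settled in any line. With the replicate block Mac1 had 4 calls in place of 9, THP6 1, and the tests of a line against the others 30 in place of 46. The cause of the lost calls was not tested. With 1 library left out the calls ran from 0 to 1 in H9, 2 to 3 in MyLa, 2 to 4 in Mac1, 9 to 15 in SUP-T1, 6 to 11 in CCRF-CEM, 5 to 10 in MOLT4 and 1 to 21 in THP6. Control levels of lines gave 61 to 64 calls, lines against the others 38 to 62, and differences between lines 25 to 34. The mean and both class comparisons were not refitted with single libraries left out. They gave 0 calls with any 1 of the 6 lines other than SUP-T1 left out. Depth limits ABCA1, ABCG1, CYP51A1 and ELOVL6 where they are near 0.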
